A study of Danio rerio with 4 samples.

Results

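The extracellular matrix genes described here are the collagens, laminins, matrilins, fibulins and integrins, together with the fibronectin genes fn1a and fn1b, the proteoglycan genes lum and dcn, and sparc. They were chosen by symbol alone: a gene entered when its symbol, in the array's annotation or in RefSeq's current naming, was col with a number, began with lama, lamb, lamc, matn, fbln, itga or itgb, or was one of the single genes above. The rule found 59 of 9665 named genes, measured on 120 of 20406 array features. Of the 59, 26 were collagens, 8 laminins, 11 integrin subunits, 4 fibulins, 2 matrilins, 2 fibronectins, 2 leucine-rich proteoglycans and 1 was sparc. The other 3 met the rule by a symbol only and are no matrix or integrin genes in the strict sense. They are cert1a, a ceramide transporter that the array still calls col4a3bpa, nmrk2, a nicotinamide riboside kinase once named itgb1bp3, and itgb1bp1, which encodes a cytoplasmic protein that binds an integrin tail. The rule also covers the fibrillins and hspg2, but no array feature was named as one of them, so they are not among the genes analysed here. The same holds for other genes that fit the rule, such as col4a2, col6a1, col6a2, col10a1a, col12a1a, lama2, itga4, itgb2 and itgb7.

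RNA of whole zebrafish embryos at 28 hours post-fertilization was compared on 4 arrays with 2 dyes each. NHA9 embryos had 1 parent from the line Tg(spi1::lox-eGFP-lox::NHA9) and 1 from Tg(hsp70::Cre), in which Cre, under a heat shock promoter, removes the eGFP cassette so that the human leukaemia fusion NUP98-HOXA9 can be expressed from the promoter of the myeloid gene spi1. For lGl embryos that floxed line was crossed to wild-type AB fish, so they carried the transgene with its cassette in place and no Cre. Both kinds received 1 h at 37 °C at 24 hours post-fertilization, and RNA was taken 4 h later. Carriage of Cre and the second parent line differed together with the fusion gene, so their parts cannot be told apart. There were 2 extracts of each kind, paired by replicate number, and the number of embryos or clutches behind an extract is not given. Going by that number, each pair was hybridised in a forward orientation, with NHA9 in Cy5, and again with the dyes exchanged. The fusion transcript itself was not analysed here.

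Vertebrate matrix is laid down as fibrils of collagen triple helices in loose tissue, cartilage and the notochord sheath, and as thin basement membranes of laminin and type IV collagen under epithelia, muscle and vessels. Fibronectin is assembled into fibrils at the cell surface, and integrins, each an alpha and a beta subunit, are the receptors that join these proteins to the cytoskeleton. In the zebrafish embryo at this age the notochord sheath, the somite boundaries and the skin are among the main places where matrix is built.

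All values below are log2 ratios as deposited, the log base being taken as 2. An array and its dye swap ran alike (r = 0.747 over all features in replicate 1 and 0.465 in replicate 2), so the columns were read as turned to a single contrast, and NHA9 over lGl is the likely direction from titles and dyes. If the deposited ratio is the reverse, every sign turns. Between replicates, arrays of the same orientation correlated with r = 0.449 (forward) and 0.387 (dye swap), and arrays of opposite orientation with r = 0.112 and 0.109. The source of this difference by orientation was not tested. The 2 arrays of a pair were averaged to a replicate (n = 2) and the mean ratio was tested against 0 with limma over 13261 items, the named genes and each unnamed feature. limma pooled the spread over all items, which gave a standard error of 0.301 and a 95% interval of ±0.589 around every ratio, and the smallest ratio that passed an adjusted p of 0.05 was 0.96. Column medians lay between −0.01 and 0.03. Signal over background is unknown for these values.

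The 2 measured type XXVIII collagen genes were higher in NHA9 embryos, and no other gene of the 59 passed the test in either direction. Over all items tested, 2.04% passed as higher and 0.792% as lower, so 2 of 59 higher and 0 of 59 lower are shares close to the background. At an unadjusted p under 0.05 from limma, 7 of the 59 stood higher (col28a1a, col28a2a, cert1a, fn1b, itga6b, fbln2 and lum) and 1 lower (col5a2a). Of all items tested, 6.13% stood higher and 4.31% lower at that threshold. The median ratio of the 59 genes was 0.02, the same as that of all items tested, and 32 ratios were positive and 27 negative. Ratios ran from −0.82 for col5a2a to 2.07 for col28a1a. RNA of whole embryos was measured, so a change in the number of cells that make a transcript and a change in the amount per cell cannot be told apart.

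**Figure D1:**
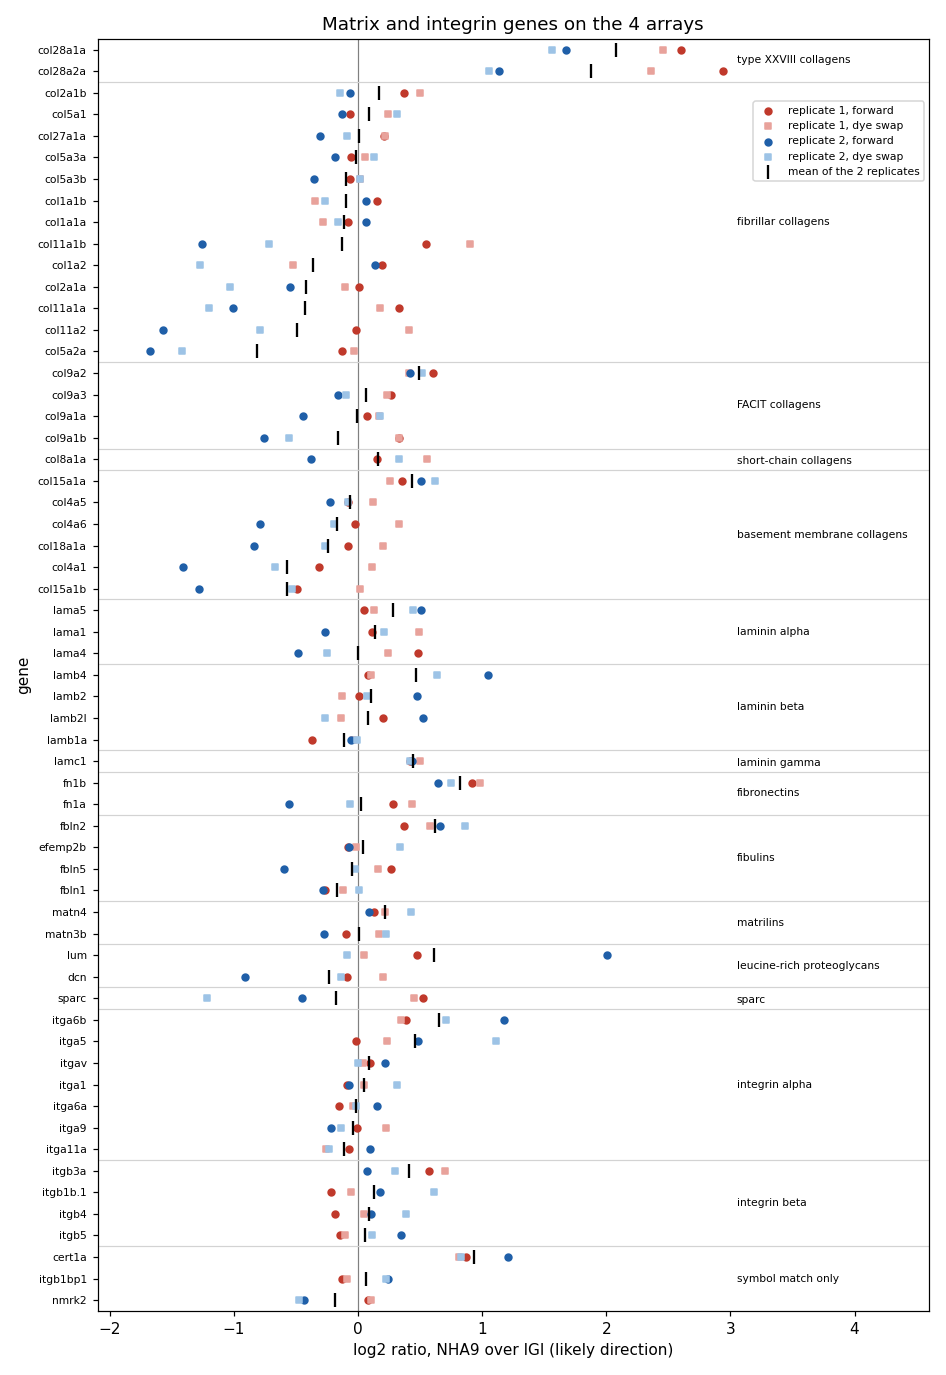
Log2 ratio of NHA9 over lGl (likely direction) of the 59 genes on each of the 4 arrays, ordered by family and by mean. Red symbols are replicate 1, blue symbols replicate 2, circles forward arrays, squares dye swaps, and the black tick is the mean of the 2 replicates. The type XXVIII collagens col28a1a and col28a2a lie above 1 on all 4 arrays, most other genes lie around 0, and several fibrillar collagens are low on the blue points alone.

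Type XXVIII collagen has a short triple helix flanked by von Willebrand factor A domains, and in the mouse it is known from the sheaths of peripheral nerves. The ratio of col28a1a was 2.60 on the forward array and 2.45 on the dye swap of replicate 1, and 1.68 and 1.56 on those of replicate 2. Its mean was 2.07 ± 0.64 (SD, n = 2; limma adjusted p = 1.58e-09). The ratio of its paralogue col28a2a was 2.94 and 2.36 in replicate 1 and 1.14 and 1.06 in replicate 2, with a mean of 1.87 ± 1.099 (limma adjusted p = 9.72e-08). All 8 values were above 1, and for both genes both arrays of replicate 1 were above both arrays of replicate 2. Both p-values rest on the spread pooled over all items, and the SDs of both genes were above the pooled SD of 0.425.

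The 2 array features of col28a1a differed in size. The first read 4.31, 3.86, 3.22 and 2.43 on the 4 arrays, a mean of 3.46, and passed by itself (limma adjusted p = 1.34e-25 with each feature tested alone, where 1.77% of all features passed as higher and 0.711% as lower). The second read 0.89, 1.05, 0.14 and 0.70, a mean of 0.69, and did not pass (adjusted p = 0.349). Both were positive on every array. The single feature of col28a2a is annotated by the array as col28a1a and was placed on col28a2a through its accession, so the assignment of signal between these paralogues rests on the annotation. Cross-hybridisation between them was not tested. In assembly GRCz12tu the measured genes nearest to col28a1a are rpa3 and glcci1a on one side and sdhaf3 and tac1 on the other, with ratios between −0.24 and 0.21. Those nearest to col28a2a are bbs5, klhl41a, dhrs9 and spc25, with ratios between −0.16 and 0.61. None of these 8 neighbours, which were picked by position, passed the test (smallest limma adjusted p 0.447, for dhrs9).

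The type XXVIII calls depend on how the columns are read. With the dye-swap columns turned by their dyes before averaging, the ratio of col28a1a was 0.07 (limma adjusted p = 0.625) and that of col28a2a 0.17 (adjusted p = 0.22), and neither passed. That reading subtracts the dye swap from the forward array, so a gene alike in both orientations comes out small by construction. In that reading 9.85% of all items passed as higher and 5.11% as lower, and the matrix genes that passed were col1a2, lamb2l and lum as higher and col11a2, col15a1b, col4a1 and col8a1a as lower. With the replicate pair kept as a block over the 4 arrays and no dye term, col28a1a passed (limma adjusted p = 0.0118) and col28a2a did not (adjusted p = 0.0776). With the block and a dye term both passed. There the correlation between arrays of a pair was computed from mean squares, since limma's own estimate returned no value. It was 0.82, against 0.49 from limma without the dye term.

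Among the other 24 collagens, 7 ratios were positive and 17 negative, and none passed the test. Type I collagen, the main fibril of skin and loose connective tissue, is measured by col1a1a, col1a1b and col1a2, with mean ratios of −0.11, −0.10 and −0.37. The 2 features of col1a2 averaged 0.08 and −0.82. Averaged over features, all 3 genes read lower on the dye swap than on the forward array in both replicates, though not every feature did. The gap was widest for col1a2, at 0.20 and −0.53 in replicate 1 and 0.14 and −1.27 in replicate 2, and its sign turned to 0.53 (limma adjusted p = 0.000873) when the swap columns were turned by dye.

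Type V collagen chains start and limit the growth of type I fibrils. The ratio of col5a2a was −0.13 and −0.03 in replicate 1 and −1.68 and −1.42 in replicate 2, the lowest mean of the 59 genes at −0.82 ± 1.04 (SD, n = 2; limma adjusted p = 0.146). All 4 values were negative, but those of replicate 1 were close to 0. Its 3 features averaged −0.49, −0.83 and −1.13, and the last passed when each feature was tested alone (limma adjusted p = 0.0161). The other type V genes, col5a1, col5a3a and col5a3b, lay between −0.10 and 0.09.

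Type II collagen forms the fibrils of the notochord sheath and of cartilage, type XI chains are built into the same fibrils, and type IX collagen, a FACIT (fibril-associated collagen with interrupted triple helices), coats them. In these 9 genes, grouped together after their values had been seen, replicate 1 was above replicate 2 without exception, with medians of 0.25 and −0.66. The ratio of col11a1a was 0.33 and 0.17 in replicate 1 and −1.01 and −1.20 in replicate 2, a mean of −0.43 ± 0.96. The ratio of col11a2 was −0.01 and 0.41 against −1.57 and −0.79, and that of col11a1b, also picked after its values were seen, was 0.55 and 0.90 against −1.25 and −0.72. For each of these 3 the arrays of the replicates did not overlap, the difference between replicates exceeded 1, and the mean over both replicates did not pass.

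The 2 zebrafish type II genes and the type IX genes followed the same order with smaller gaps. The ratio of col2a1a was 0.00 and −0.10 in replicate 1 and −0.55 and −1.03 in replicate 2, and all of its 5 features had negative means, between −0.46 and −0.34. The ratio of col9a1b was 0.33 and 0.33 against −0.76 and −0.56, while col9a1a stood at −0.01 on average. Of the 9 genes only col9a2 had the same sign on all 4 arrays, at 0.61, 0.41, 0.42 and 0.52. Its mean of 0.49 ± 0.03 was positive in both replicates and did not pass (limma adjusted p = 0.647).

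**Figure D2:**
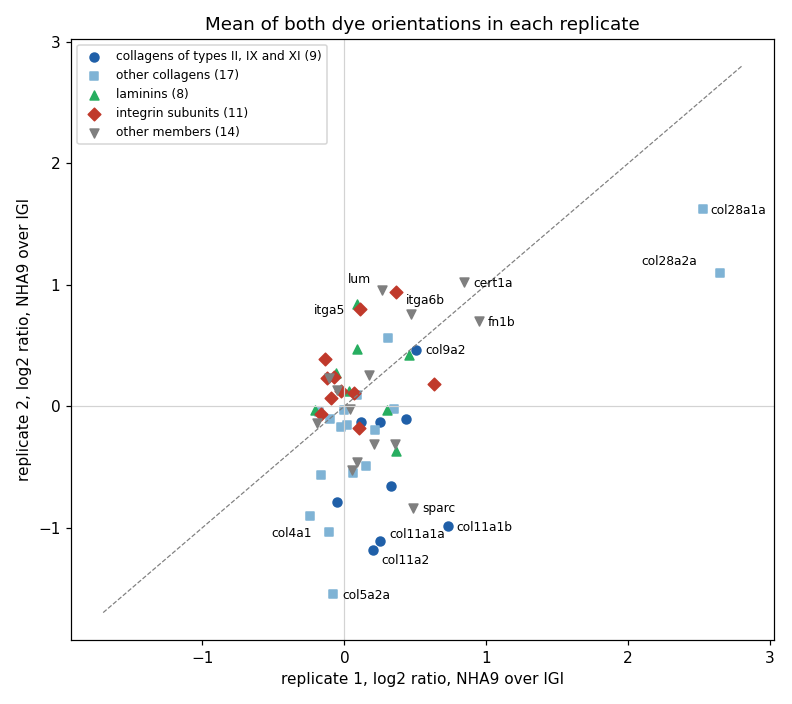
Log2 ratio of NHA9 over lGl (likely direction) in replicate 1 (x axis) against replicate 2 (y axis), each the mean of both dye orientations, for the 59 genes. The dashed line marks equal ratios. Collagens of types II, IX and XI, drawn as dark blue circles, all lie below the line, and 9 of the 11 integrin subunits, drawn as red diamonds, lie above it.

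This order was seen in most collagens. Replicate 1 was above replicate 2 in 23 of 26, or 88.5%, against 47.7% of all items tested, and in 21 of 24 without type XXVIII. In the 11 integrin subunits the order held in 2, or 18.2%, and in the 8 laminins in 3. Taken singly, replicate 1 had 2 matrix genes at least 2-fold higher with a single sign on its 2 arrays (col28a1a and col28a2a; 2.55% of all items) and 0 at least 2-fold lower (1.55% of all items). Replicate 2 had 3 higher (cert1a, col28a1a and col28a2a; 2.5% of all items) and 4 lower (col11a1a, col11a2, col4a1 and col5a2a; 3.2% of all items). Replicate 1 was at least 2-fold above replicate 2, with no overlap of arrays, for col11a1a, col11a1b, col11a2, col28a2a, col5a2a and sparc, which is 6 of 59 against 5.09% of all items. It was as far below replicate 2 for 0 of 59, against 3.17% of all items. These differences are between pairs of extracts and not between NHA9 and lGl embryos, and their source was not tested.

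Markers of cartilage and neural crest mesenchyme and of the notochord moved between replicates as follows. The 8 measured markers of cartilage and neural crest mesenchyme had medians of 0.09 in replicate 1 and −0.16 in replicate 2, with replicate 1 the higher in 8 of 8. The widest gap was that of sox9a, a transcription factor that drives col2a1a in cartilage, at 0.39 and −0.81. It was picked after its values were seen, and the next widest gap was that of twist1b, at −0.25 and −0.64. The 7 measured notochord markers had medians of 0.18 and −0.11, with replicate 1 the higher in 5 of 7. Among them tbxta, the notochord's Brachyury gene, had the widest gap and was likewise picked after its values were seen. It read 0.80 and −0.66, while shhb, at 0.07 and 0.33, and foxa2, at 0.29 and 0.54, ran the other way. None of these 15 markers passed the test between NHA9 and lGl embryos, and their part in the collagen values was not tested.

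**Figure D3:**
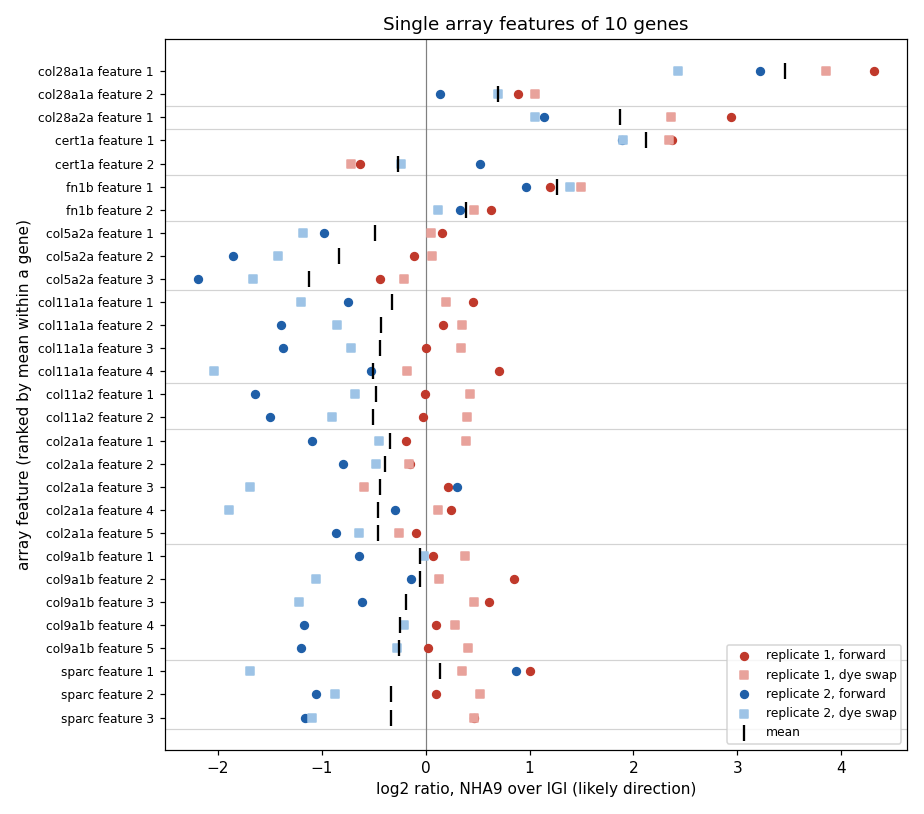
Log2 ratio of NHA9 over lGl (likely direction) of each array feature of 10 genes on the 4 arrays, with features ranked by mean within a gene. Red symbols are replicate 1, blue symbols replicate 2, circles forward arrays, squares dye swaps, and the black tick is the mean. All features of col5a2a, col11a1a, col11a2 and col2a1a have negative means, and the feature pairs of col28a1a and cert1a lie 2.76 and 2.39 apart.

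Basement membrane collagens had a median of −0.21 over 6 genes, 5 of them negative, with medians of 0.04 in replicate 1 and −0.52 in replicate 2. The ratio of col4a1, which gives one of the chains of the main type IV network, was −0.32 and 0.11 in replicate 1 and −1.41 and −0.67 in replicate 2, a mean of −0.57 ± 0.66. The neighbouring genes col4a5 and col4a6, chains of a second type IV network, averaged −0.07 and −0.17. The paralogues of collagen XV differed in sign: col15a1a read 0.35, 0.26, 0.51 and 0.62, a mean of 0.43, and col15a1b averaged −0.57. Collagen XVIII, whose tail is cleaved to endostatin, is measured by col18a1a, at −0.25. None of the 6 passed.

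Of the 8 laminin genes, 6 ratios were positive, with a median of 0.12, and none passed. The chains of the first laminin trimer of the embryo, which the notochord needs to differentiate in zebrafish, are lama1, lamb1a and lamc1, at 0.14, −0.12 and 0.44. The ratio of lamc1 was 0.42, 0.50, 0.43 and 0.42, the same on all arrays within 0.1, and missed the threshold (limma adjusted p = 0.711). The ratio of lamb4, which lies beside lamb1a in the genome, was 0.08 and 0.10 in replicate 1 and 1.05 and 0.63 in replicate 2, a mean of 0.47 ± 0.53. Of the other alpha chains lama5, a basement membrane chain of skin and fin fold, averaged 0.28 and lama4, a chain of vessel walls, 0.00, the latter from 0.36 in replicate 1 and −0.37 in replicate 2. The 2 neighbouring genes lamb2 and lamb2l averaged 0.11 and 0.08.

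The 11 integrin subunits had a median of 0.09, with 8 positive ratios, and none passed. The 7 alpha subunits ran from −0.12 for itga11a, the alpha subunit of a collagen receptor, to 0.65 for itga6b. Integrin alpha 6 is a laminin receptor subunit, and itga6b read 0.39, 0.35, 1.18 and 0.71, positive on every array (mean 0.65 ± 0.41; limma adjusted p = 0.371), whereas its paralogue itga6a averaged −0.02 from features at 0.32 and −0.35. The fibronectin receptor subunit itga5, which zebrafish need for somite boundaries, read −0.01 and 0.24 in replicate 1 and 0.48 and 1.11 in replicate 2. The 4 beta subunits had positive means, from 0.05 for itgb5 (−0.008 with the arrays scaled to a common spread) to 0.41 for itgb3a. Only 1 of the 4 was positive in replicate 1 and all 4 in replicate 2, with medians of −0.10 and 0.24. Integrin beta 3 pairs with integrin alpha V, and itgb4, the beta subunit of hemidesmosomes, stood at 0.09.

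The fibronectin paralogues differed in size. The ratio of fn1b was 0.91 and 0.98 in replicate 1 and 0.65 and 0.75 in replicate 2, a mean of 0.82 ± 0.18 (limma adjusted p = 0.14). Its features averaged 1.26 and 0.39, both positive on all arrays, and the first passed when each feature was tested alone (limma adjusted p = 0.00363). For fn1a the arrays gave 0.28 and 0.43 in replicate 1 and −0.56 and −0.07 in replicate 2, a mean of 0.02.

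Among the proteins that bind to collagen fibrils or basement membranes, sparc, a secreted collagen-binding glycoprotein, read 0.52 and 0.45 in replicate 1 and −0.45 and −1.22 in replicate 2, a mean of −0.18 ± 0.93, and its arrays did not overlap between replicates. The proteoglycan genes lum and dcn lie side by side in the genome and averaged 0.61 and −0.23. The mean of lum rested on 1 array, since it read 0.48, 0.05, 2.00 and −0.09. Fibulins are glycoproteins of basement membranes and elastic fibres. The ratio of fbln2 was 0.37, 0.58, 0.66 and 0.86, positive on every array, a mean of 0.62 ± 0.20 (limma adjusted p = 0.441), and the remaining fibulins ran from −0.17 for fbln1 to 0.04 for efemp2b, the gene of fibulin 4. Matrilins link cartilage matrix fibres, and matn4 averaged 0.21. The mean of matn3b was 0.01, from 0.04 in replicate 1 and −0.02 in replicate 2.

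Of the 3 genes that met the rule by symbol only, cert1a stood highest. It read 0.87, 0.81, 1.21 and 0.83, a mean of 0.93 ± 0.13 (limma adjusted p = 0.0633). Its 2 features disagreed in sign: one read 2.37, 2.34, 1.89 and 1.90, a mean of 2.13 (adjusted p = 2.65e-09 with each feature tested alone in limma), and the other averaged −0.27. It was the only member whose features disagreed in sign and lay more than 1 apart. Of the 38 members with 2 or more features, 19 had features of both signs, and the median distance between the highest and the lowest feature was 0.29.

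Over the 59 genes, the ratios of the replicates correlated with r = 0.469, and with r = 0.235 over the 57 genes without type XXVIII collagens, against 0.339 over all items tested. The genes share the same 4 arrays and extracts, so these are descriptions of the 2 pairs. A single sign on all 4 arrays was found for 16 genes, 27.1%, against 32.6% of all items. Of these, 14 were positive and 2 negative, col5a2a and lamb1a. The replicates had the same sign for 30 genes, 50.8%, against 55.3% of all items.

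**Figure D4:**
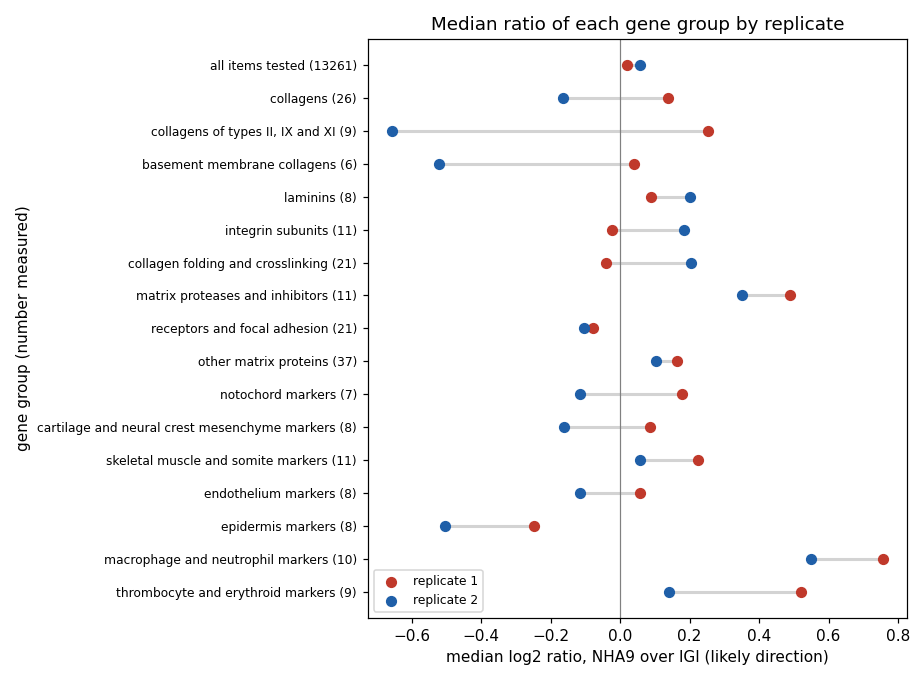
Median log2 ratio of NHA9 over lGl (likely direction) of each gene group, in replicate 1 (red) and replicate 2 (blue), with the number of measured genes in parentheses. Of the groups drawn, the collagens of types II, IX and XI are furthest apart between replicates, at 0.25 and −0.66. The macrophage and neutrophil markers have positive medians in both. So do all items tested, the laminins, the matrix proteases, the other matrix proteins, and the muscle and the thrombocyte and erythroid markers. The collagens of types II, IX and XI were grouped after their values had been seen, so their place among the groups is no independent result.

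Genes that make, cut and bind the matrix were read from lists by function, and their counts are to be set beside the 2.04% of all items that passed as higher and the 0.792% that passed as lower. Of the 21 measured genes for collagen folding, secretion and crosslinking, such as the lysyl oxidases and prolyl hydroxylases, 0 passed (limma; at an unadjusted p under 0.05, 0 stood higher and 1 lower), with a median of 0.02. The ends of this list were loxl2b and loxl2a, lysyl oxidase relatives, at 0.39 and 0.36, and pcolce2b, an enhancer of procollagen cleavage, and sec13, a coat subunit of secretory vesicles, at −0.65 and −0.45. The mean of pcolce2b rested on replicate 1, at −1.32, against 0.025 in replicate 2. The collagen chaperone gene serpinh1b was not among these ends and is given because it acts on all fibrillar collagens, having been picked after its values were seen. It read −0.16 and −0.23 in replicate 1 and 1.05 and 0.68 in replicate 2, opposite in order to the collagens.

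Of the 11 measured matrix proteases and their inhibitors, 1 rose and 0 fell, the median was 0.37, and 9 had a single sign on all 4 arrays. The gene that rose was mmp13a, a collagenase, at 1.88 and 1.80 in replicate 1 and 0.26 and 0.76 in replicate 2 (mean 1.18, limma adjusted p = 0.00546). The gelatinase gene mmp9 read 1.21, 1.27, 0.66 and 0.55, a mean of 0.92 that narrowly missed the threshold (limma adjusted p = 0.0672). The lowest ratios were those of timp2b, an inhibitor of these enzymes, at −0.33, and of mmp16a at −0.02. The latter came from 0.49 in replicate 1 and −0.53 in replicate 2. The gene mmp13a also stands in the list of 10 measured macrophage and neutrophil markers, all of which were positive, with a median of 0.61. In that list 4 of 10 rose, mmp13a, lyz, mpeg1.1 and mpx, and its part in the protease values was not tested.

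Of the 21 measured genes of matrix receptors and focal adhesions other than integrins, 1 rose and 0 fell, with a median of −0.04. The gene that rose was parvaa, an alpha-parvin that couples integrin-linked kinase to actin, at 0.70, 0.88, 1.39 and 1.17 (mean 1.04, limma adjusted p = 0.0253). All 4 of its values were positive, and its paralogue parvab averaged 0.50 and did not pass. The lowest were cd151, a tetraspanin partner of laminin-binding integrins, at −0.78, and zyx, the focal adhesion protein zyxin, at −0.57. Of 37 other matrix and basement membrane proteins 0 passed (limma; at an unadjusted p under 0.05, 1 stood higher and 1 lower), with a median of 0.10. Its highest were thbs4b, a thrombospondin of muscle attachments, at 0.66 and tgfbi at 0.49, and its lowest hapln3, a link protein of hyaluronan, at −0.86 and smoc1 at −0.43. The mean of smoc1 came from 0.31 in replicate 1 and −1.16 in replicate 2.

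Markers of other tissues gave these medians. The 11 skeletal muscle and somite markers stood at 0.19 and the 8 endothelial markers at −0.06, with 0 passing in either list (limma; 0 also at an unadjusted p under 0.05). The muscle and somite median differed by orientation. In replicates 1 and 2 it was 0.25 and 0.15 on the forward arrays, against −0.10 and −0.38 on the dye swaps. The 8 epidermal markers stood at −0.11, with 4 positive and 4 negative. Only cdh1, which encodes E-cadherin, passed, at 1.03, while the lowest, tp63 and krt5, stood at −0.53 and −0.50. The 9 thrombocyte and erythroid markers stood at 0.25, with 8 positive and 1 negative, and 4 of the 9 had a single sign on all 4 arrays. Only gp1bb, a thrombocyte surface glycoprotein gene, passed, at 1.56. The next highest was gata1a at 0.68, and the next lowest hbae1.1 at 0.20. The latter read 0.92 and −0.28 in replicate 1 and 0.88 and −0.71 in replicate 2. The lowest, hbae3, averaged −0.72, but read −0.14 and −1.53 in replicate 1 and 0.59 and −1.81 in replicate 2. From the same list gp9, picked after its values were seen, stood at 0.20.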

How the data were processed

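The authors' deposited values are log ratios of both channels of each array, 20406 features on each of 4 arrays, taken here as log2 because they reach from −7.98 to 6.75. For log base, centring, direction, scanner, background correction, normalization and probe filter, each is not given in the sources used. Trizol and RNeasy columns gave the RNA, Alexa Fluor dyes were put on the cDNA directly, and some extracts with little RNA were first amplified, all per the labels' protocols, which do not name those extracts. Features were named through the array's annotation and RefSeq's gene table (assembly GRCz12tu): 16810 had 1 symbol, 0 several and 3596 none. Features of a gene were averaged. An array and its dye swap were taken from their shared replicate number to hold the same extracts, and were averaged. limma 3.58.1 in R 4.3.3 (lmFit, eBayes) tested the mean against 0 with Benjamini-Hochberg adjustment over all items, after it had been tested on simulated data. Those data gave every item the same spread, so they cannot show how the test behaves where the spread differs between genes. In the reported fit each ratio was judged against a single spread, pooled over all items. A gene's own difference between replicates therefore had no part in its p-value there. The differences between these extracts may be technical. A pair of extracts shares only its number across the arrays of both orientations, and the replicate block was an alternative. Named were members past the threshold, the 8 highest and 8 lowest with a single sign on all arrays, the ends of each class of 3 or more, a list of well-known genes and members with discordant features. For the other lists they were members past the threshold and the highest and lowest 2. Genes outside this rule, such as col11a1b, were picked after their values were seen, and the type II, IX and XI members were grouped after theirs were seen. The members, lists and tests were chosen with earlier results of these data known. Alternatives were the reading by dye, single orientations, scaling, quantile normalization, treatment of features and the block. No sequence is given.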

Additional observations from a re-analysis of the deposited data

How the results depend on the processing

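The count of 2 higher and 0 lower matrix genes was kept, with the same 2 genes, with dye-swap arrays only, arrays scaled to a common spread, quantile normalization, the median of features, unnamed features left out, and the replicate block with a dye term. With the replicate block but no dye term, 1 was higher (col28a1a). With forward arrays only, 4 were higher, cert1a and lum being added. With each feature tested alone, 4 were higher (cert1a and fn1b added) and 1 lower (col5a2a). With the swap columns turned by dye, 3 were higher and 4 lower, none of them type XXVIII, 31 of 59 ratios changed sign, and those of col1a2 and col8a1a turned to 0.53 and −0.28 with a call. Turning by dye subtracts the dye swap from the forward array, so genes alike in both orientations, type XXVIII among them, come out small by construction. The cause of the other changes was not tested. The count over all items was 271 higher and 105 lower. It was 89 and 25 with the block and no dye term, 183 and 65 with a dye term, 177 and 66 after scaling, 470 and 147 with forward arrays only, 260 and 248 with dye swaps only, and 1306 and 678 when turned by dye. The median ratio of the 59 genes lay between −0.06 and 0.07 over these settings, at −0.03 without replicate 1 and 0.09 without replicate 2. Counts without a replicate were not run, since 1 pair of extracts leaves no residual degrees of freedom. In the reported fit no ratio under 0.96 passed, and the smallest that passed was 0.906 with quantile normalization and 0.261 when turned by dye.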
